A study of Homo sapiens with 12 samples.

Results

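The effect of MITF knockdown was measured in 624Mel cells that were already exposed to interferon gamma (IFNγ). The comparison was chosen by condition: the 3 libraries of cells given an siRNA against MITF and IFNγ (siMITF + IFNγ) were set against the 3 libraries of cells given a control siRNA and IFNγ (siCTRL + IFNγ), which are 6 of the 12 RNA sequencing libraries of the study. 624Mel is an established human melanoma line with a pigmented, differentiated phenotype. Cells were transfected with the siRNA, received 5 ng/mL IFNγ 24 h later and were collected after a further 24 h of IFNγ. The remaining 6 libraries came from cells given either siRNA and no IFNγ (siCTRL and siMITF, 3 libraries each) and serve here only to say where the effect of siMITF under IFNγ differed from its effect without it. All groups share the parental line and transfection with an siRNA, so every value belongs to 1 cell line, to transient knockdown and to a single IFNγ dose and time.

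MITF is the transcription factor that directs the melanocyte programme: it binds E-box motifs in the promoters of pigment enzymes, melanosome proteins and transporters, and its loss moves melanoma cells away from the pigmented state towards states with neural crest and mesenchymal features. IFNγ signals through its receptor and the JAK kinases to STAT factors, which switch on IRF1 and through it a broad set of genes for antigen presentation and T cell attraction. MHC class II genes additionally need the coactivator CIITA, which IFNγ induces in many cell types that do not present antigen at rest.

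The table gives TPM values per Ensembl gene ID, each a length-corrected share of all transcripts in a library, so levels may be compared between genes, but read depth is not kept and no counting error can be derived. The TPM of the 6 libraries summed to between 977722 and 982632, and between 11978 and 12377 IDs per library had at least 2 TPM. Mitochondrially encoded genes took 8.45% to 16.9% of the TPM, with the lowest share in siCTRL + IFNγ replicate 2. The 8 melanocytic markers were present in all 6 libraries, with PMEL at 842 TPM or more. Of 17 markers of other cell types, 15 stayed under 2 TPM in both groups, and the summed TPM of all 17 was 6.20 to 7.14 in siCTRL + IFNγ and 9.24 to 11.5 in siMITF + IFNγ libraries, with separate groups. Both tested markers had an adjusted p under 0.05 in limma and missed the fold limit: the lysozyme gene LYZ had 1.46, 1.6 and 1.31 TPM against 3.03, 3.12 and 2.93 TPM (log2 fold change 0.71), and LUM, a collagen-binding proteoglycan, 3.24, 2.41 and 2.07 TPM against 4.84, 3.93 and 3.43 TPM (log2 fold change 0.51). The markers under 1 TPM went either way. The leukocyte marker PTPRC was higher in each siMITF + IFNγ library (0.391, 0.285 and 0.224 TPM against 0.601, 0.732 and 0.515 TPM). The B cell marker MS4A1 (mean 0.0551 against 0 TPM), the myeloid marker ITGAM (0.171 against 0.0804 TPM) and the endothelial marker CDH5 (0.170 against 0.0232 TPM) were lower on average. The T cell receptor subunit CD3E was listed at 0 in all 6. The part of these levels in the results was not tested. In bulk RNA, fewer cells of a type and less RNA per cell cannot be told apart.

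MITF RNA was lower in every library with siMITF. MITF (ENSG00000187098, chromosome 3 from 69739456 to 69968336, GRCh38) had 158, 246 and 243 TPM in the 3 siCTRL + IFNγ libraries and 37.5, 55.1 and 51.3 TPM in the 3 siMITF + IFNγ libraries. The groups did not overlap, and replicate 1 was the lowest library of each. The log2 fold change of log2(TPM + 1) was -2.14 with a standard error of 0.19 (limma, Benjamini-Hochberg adjusted p = 2.2e-06), and the mean TPM was 4.50-fold lower. Without IFNγ the log2 fold change was -2.29, and the difference between both effects was 0.16 with a standard error of 0.26.

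Among the 12555 gene IDs whose mean reached 2 TPM in either group, 726 (5.78%) changed, meaning a Benjamini-Hochberg adjusted p under 0.05 in limma and a log2 fold change of 1 or more in size. Of these, 398 (3.17% of those tested) were higher and 328 (2.61%) were lower with siMITF. By at least 2 on the log2 scale, 50 IDs were higher and 60 lower. An adjusted p under 0.05 at any size was reached by 4153 IDs (33.1%), 2296 higher (18.3%) and 1857 lower (14.8%). The libraries of both groups did not overlap for 38.2% of the tested IDs, and 8 of the 726 changed IDs had overlapping libraries. The median log2 fold change over all tested IDs was 0.03, the value against which the medians of the gene groups below can be read. A single gene compared between 3 and 3 libraries cannot fall below p = 0.1 in an exact two-sided permutation test, so single genes were judged only by the limma fit across all IDs.

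Genes for pigment and melanosomes had the lowest median of the 28 gene lists described here. Of 20 listed genes, all of them tested, 12 fell, 0 rose and 8 did not pass all thresholds, and 18 had an adjusted p under 0.05. Their median log2 fold change was -1.39, against -1.37 without IFNγ. No member had a log2 fold change above 0.

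TRPM1, a cation channel of melanocytes, had 61.3, 53.2 and 56.8 TPM in siCTRL + IFNγ and 0.661, 0.848 and 1.31 TPM in siMITF + IFNγ libraries, a log2 fold change of -4.91 with a standard error of 0.13 (limma adjusted p = 9.5e-11). MLANA, the melanosome protein Melan-A and a T cell antigen in melanoma, had 625, 597 and 599 TPM against 24.2, 23.1 and 28.2 TPM (log2 fold change -4.54, adjusted p = 1.6e-11). DCT, the dopachrome tautomerase of eumelanin synthesis, had 156, 217 and 217 TPM against 15.3, 19.1 and 22.3 TPM (log2 fold change -3.32, adjusted p = 1.3e-08). For all 3 genes the groups lay far apart, and the mean TPM of MLANA was 24.1-fold lower with siMITF. MLPH, melanophilin, which links melanosomes to the myosin motor, followed with 57.8, 62.9 and 62.9 TPM against 7.96, 7.78 and 9.19 TPM (log2 fold change -2.74).

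PMEL, which forms the fibrils of the melanosome, was the most abundant member and had 3843, 5432 and 5001 TPM in siCTRL + IFNγ and 842, 1159.6 and 1164 TPM in siMITF + IFNγ libraries. Its log2 fold change was -2.17 (standard error 0.15, limma adjusted p = 2.2e-07), so that PMEL RNA remained at a mean of 1055 TPM after knockdown. TYRP1, an enzyme of eumelanin synthesis, had 1829, 2478 and 2291 TPM against 723, 866 and 804 TPM (log2 fold change -1.45). In both genes replicate 1 was the lowest library of each group, as for MITF itself. GPNMB, a melanosome and lysosome glycoprotein, went from 618, 741 and 676 TPM to 205, 214 and 212 TPM (log2 fold change -1.68), and GPR143, the melanosomal receptor mutated in ocular albinism, from 157, 175 and 170.2 TPM to 48.2, 50.9 and 57.4 TPM (log2 fold change -1.67).

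The transporters OCA2 and SLC24A5 fell with log2 fold changes of -1.75 and -1.45, and the small GTPases of melanosome traffic RAB27A and RAB32 with -1.34 and -1.28. Tyrosinase, the enzyme that starts melanin synthesis, did not pass the fold limit. TYR had 374, 451 and 412 TPM in siCTRL + IFNγ and 296, 309 and 292 TPM in siMITF + IFNγ libraries, a log2 fold change of -0.46 with a standard error of 0.08 (limma adjusted p = 8.5e-04). Its groups did not overlap, but its mean TPM was only 1.38-fold lower, where that of TRPM1 was 60.7-fold lower. SLC45A2, a melanosomal transporter, likewise had an adjusted p under 0.05 with a log2 fold change of -0.65. ATP7A, the copper pump that supplies tyrosinase, and MYO5A, the myosin that carries melanosomes, had log2 fold changes of -0.08 and -0.44 and did not pass the adjusted p.

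**Figure D1:**
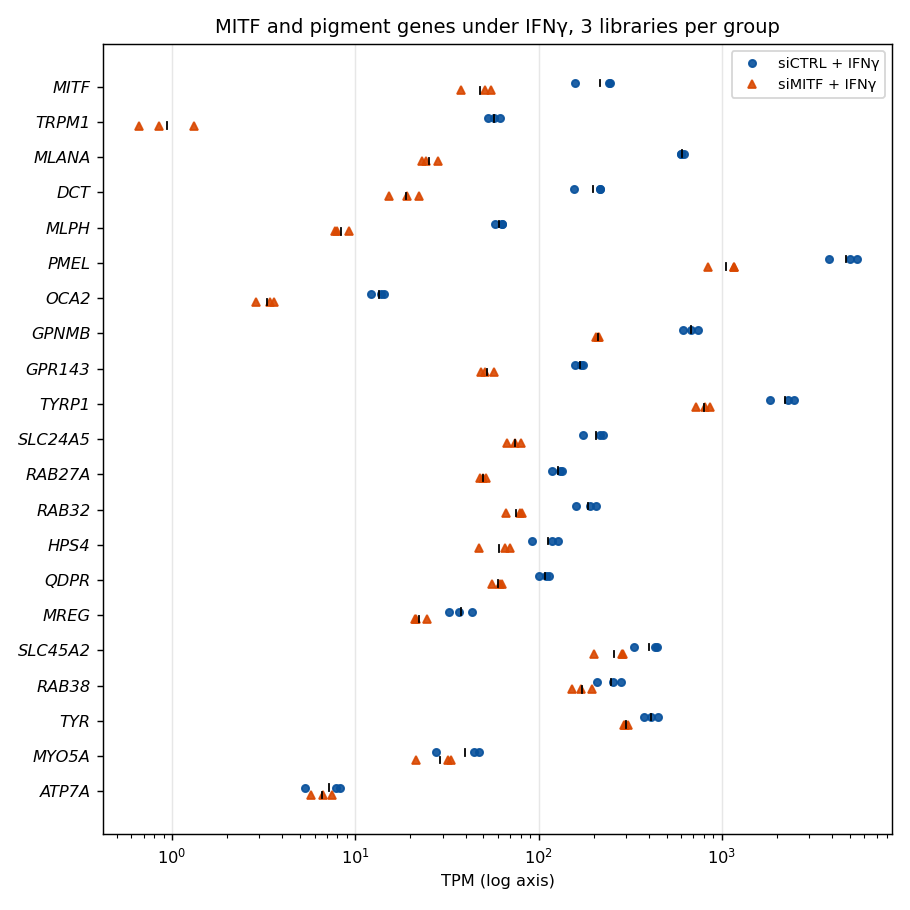
TPM on a log axis of MITF and the 20 pigment and melanosome genes, ordered by log2 fold change below MITF, in the 3 siCTRL + IFNγ libraries (circles) and the 3 siMITF + IFNγ libraries (triangles), with a short black line at each group's mean TPM. The groups are widest apart for TRPM1 and MLANA, close for TYR (-0.46) and overlapping for MYO5A and ATP7A.

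MITF is known to bind the E-box letters CATGTG, often in the extended form TCATGTG, and CACGTG. These letters were counted on both strands in RefSeq promoters (GRCh38.p14, 250 bases before to 50 after the annotated start), which matched 9249 of the 11523 tested IDs with a symbol. CATGTG stood in 16.1% of the 236 promoters of genes that fell, in 7.72% of the 259 promoters of genes that rose and in 6.52% of all tested promoters. TCATGTG, each occurrence of which also holds CATGTG, stood in 5.08%, 1.16% and 1.69% of the same sets. CACGTG was about as frequent among genes that fell (10.6%) as among all tested genes (10.5%), and stood in 7.34% of the promoters of genes that rose. A match describes letters in the window and is not a measured site. Over all 27305 promoters of the table, most of them of genes not tested here, CATGTG stood in 11.2%.

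The promoters of 4 genes that fell are shown because they hold the extended motif before the start, on the gene's own strand from 5′ to 3′, with every match to these 3 motifs in capitals on whichever strand it reads. With positions counted back from the annotated start to the leftmost printed letter, TCATGTG begins at position -145 in TYRP1 and at position -51 in TRIM63, a muscle ubiquitin ligase described further on, and GPNMB and GPR143 each hold it at 2 places. In SLC24A5 and TSPAN10 it begins at positions -15 and -80. TRPM1 held CATGTG without the leading T, and no such letters were in the windows of MLANA and DCT.
TYRP1, chr9:12693135-12693434, plus strand: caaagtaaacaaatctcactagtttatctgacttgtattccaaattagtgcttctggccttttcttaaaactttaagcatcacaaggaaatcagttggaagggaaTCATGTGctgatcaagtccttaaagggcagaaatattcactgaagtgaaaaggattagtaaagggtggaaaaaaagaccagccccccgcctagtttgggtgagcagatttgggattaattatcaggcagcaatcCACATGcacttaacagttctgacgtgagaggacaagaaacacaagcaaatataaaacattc
GPNMB, chr7:23246525-23246824, plus strand: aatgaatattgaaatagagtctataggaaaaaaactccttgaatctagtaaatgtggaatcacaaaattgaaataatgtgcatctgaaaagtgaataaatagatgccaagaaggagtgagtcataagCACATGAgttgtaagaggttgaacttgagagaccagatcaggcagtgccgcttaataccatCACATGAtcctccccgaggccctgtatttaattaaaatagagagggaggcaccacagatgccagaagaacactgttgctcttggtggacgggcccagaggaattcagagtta
GPR143, chrX:9765798-9766097, minus strand: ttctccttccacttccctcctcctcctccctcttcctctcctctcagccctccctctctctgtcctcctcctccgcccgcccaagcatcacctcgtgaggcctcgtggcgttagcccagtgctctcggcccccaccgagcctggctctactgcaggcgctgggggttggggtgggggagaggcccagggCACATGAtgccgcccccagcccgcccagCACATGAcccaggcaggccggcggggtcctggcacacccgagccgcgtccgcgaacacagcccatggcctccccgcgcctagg
TRIM63, chr1:26067581-26067880, minus strand: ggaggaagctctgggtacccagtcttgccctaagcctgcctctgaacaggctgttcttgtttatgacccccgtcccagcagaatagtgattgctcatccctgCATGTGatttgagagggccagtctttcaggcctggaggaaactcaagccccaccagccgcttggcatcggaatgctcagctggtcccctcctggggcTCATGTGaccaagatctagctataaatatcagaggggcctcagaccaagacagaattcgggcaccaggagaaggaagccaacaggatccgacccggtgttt

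Beyond pigment, genes known as MITF targets from other work fell less evenly. Of 20 listed, 19 were tested, 7 fell and 1 rose, with a median log2 fold change of -0.65 under IFNγ and -1.27 without it. Taken gene by gene, the difference with minus without IFNγ had a smaller median of 0.25. It was positive for 15 of the 19, and 1 passed both limits set on the difference. CAPN3, a calpain protease, had 320.5, 329 and 329 TPM in siCTRL + IFNγ and 55.8, 57.4 and 62.5 TPM in siMITF + IFNγ libraries (log2 fold change -2.46, standard error 0.07, limma adjusted p = 3.3e-10). IRF4, a transcription factor of melanocytes and lymphocytes that cooperates with MITF at the tyrosinase gene, had 28.4, 34.6 and 31.5 TPM against 5.63, 6.22 and 6.37 TPM (log2 fold change -2.20). BCL2A1, an anti-apoptotic BCL2 relative, had 21.4, 23.3 and 21.5 TPM against 7.42, 7.39 and 6.30 TPM (log2 fold change -1.52). In each of these genes the groups were clearly apart. SEMA6A, ACP5 and TDRD7 also fell, with log2 fold changes of -1.55, -1.46 and -1.20.

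CDK2, a cell cycle kinase, fell with a log2 fold change of -1.40, but its gene (chromosome 12 from 55966781 to 55972789) lies within the annotated span of PMEL on the other strand (from 55954105 to 55973317), and without strand information reads from overlapping exons cannot be told apart. CDK5R1, an activator of CDK5, was the only member of this list that rose, from 3.49, 4.56 and 4.01 TPM to 10.4, 12 and 12.7 TPM (log2 fold change 1.34). CEACAM1, an adhesion receptor, had a log2 fold change of -0.45 under IFNγ and -1.27 without it. That difference of 0.82 passed the adjusted p (limma, 0.0048) but missed the size limit of 1. The DNA repair enzyme APEX1 and IVNS1ABP, which binds a viral protein, had -0.03 and -0.18 and did not pass the test.

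Transcription factors of the melanocyte and neural crest lineage did not move in 1 direction. Of 22 listed, 16 were tested, 2 rose and 2 fell, MITF included, with a median log2 fold change of 0.17. Over all tested IDs, 3.17% were called higher and 2.61% lower. LEF1, a Wnt pathway factor, rose from 66.4, 83.1 and 67.4 TPM to 248, 213 and 203 TPM (log2 fold change 1.6, standard error 0.11, limma adjusted p = 3.3e-07). POU3F2, also called BRN2 and known from invasive melanoma cells, rose from 5.94, 8.17 and 7.27 TPM to 18.9, 23.8 and 24.3 TPM (log2 fold change 1.52). SNAI2, a neural crest factor, fell from 34.9, 40.8 and 40.9 TPM to 11.5, 14 and 14 TPM (log2 fold change -1.5). In all 3 genes the groups were separate.

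SOX10, which activates MITF in the melanocyte lineage, was little altered, with 261, 297 and 285 TPM in siCTRL + IFNγ and 196, 224 and 241 TPM in siMITF + IFNγ libraries (log2 fold change -0.35, adjusted p = 0.00415), below the fold limit. TFAP2A, ZEB2 and ETV1 had log2 fold changes of -0.79, 0.35 and 0.26 and did not pass all thresholds. SOX9, SOX2, FOXD3, ZEB1, TFAP2B and TFEC stayed under 2 TPM in both groups and were not tested.

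The 15 largest falls also took in genes outside the pigment list. TRIM63, a muscle ubiquitin ligase, had 67.5, 66.9 and 66.0 TPM in siCTRL + IFNγ and 0.826, 1.05 and 1.66 TPM in siMITF + IFNγ libraries (log2 fold change -4.98, limma adjusted p = 8.2e-11). DENND2D, a regulator of RAB GTPases, had 25, 26.6 and 25.8 TPM against 0.615, 0.357 and 1.31 TPM (log2 fold change -3.96). MS4A15, a membrane protein, had 44.2, 44.8 and 49.0 TPM against 1.58, 2.28 and 2.92 TPM (log2 fold change -3.87). In all 3 the knockdown libraries lay near or under the minimum of 2 TPM, and each control library stood far above it.

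GABRP, a subunit of a GABA receptor, fell from 137, 129 and 160.3 TPM to 14.3, 12.5 and 16.1 TPM (log2 fold change -3.23). BHLHE41, a transcriptional repressor of the circadian clock, fell from 57.8, 69.5 and 68.7 TPM to 7.13, 6.91 and 7.09 TPM (log2 fold change -3.04). TSPAN10, a tetraspanin, and OSBPL10, an oxysterol-binding protein, ended under 1 TPM in each siMITF + IFNγ library, with log2 fold changes of -3.27 and -2.91. KRTAP19-1, a keratin-associated protein, fell by 3.05 on the log2 scale, and the pseudogene HSFY3P was also among the 15.

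The cancer-testis antigens of the GAGE family, which lie in tandem copies on the X chromosome, fell as well. GAGE13, GAGE12G and GAGE2E had log2 fold changes of -5.24, -3.36 and -3.25. Because the copies are nearly identical, the share of reads given to each is uncertain, and the family sum is the safer value. Summed over the 13 GAGE IDs of the table, TPM were 743, 732 and 676 in siCTRL + IFNγ and 105, 101 and 91.3 in siMITF + IFNγ libraries, and all 5 tested IDs fell. On the separate list of cancer-testis antigens, MAGEC1 fell from 16.7, 21.4 and 19.5 TPM to 1.89, 1.94 and 2.41 TPM (log2 fold change -2.71). It was the 1 call among 12 tested members of that list, beside 5.78% of all tested IDs called in either direction. At any size, 4 of the 12 were lower and 0 higher with an adjusted p under 0.05 in limma. MAGEA3, MAGEA4, PRAME and CTAG2 had log2 fold changes of 0.03, -0.05, -0.18 and -0.14 and did not pass the test.

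The largest rises took in secreted proteins, membrane proteins and scaffolds. IGFBP5, an insulin-like growth factor binding protein, rose from 1.91, 2.73 and 2.39 TPM in siCTRL + IFNγ to 32.6, 38.3 and 44.9 TPM in siMITF + IFNγ libraries, a log2 fold change of 3.56 with a standard error of 0.12 (limma adjusted p = 1.2e-09). DKK1, a secreted Wnt inhibitor, rose from 1.82, 1.98 and 0.899 TPM to 27.2, 27.9 and 23.8 TPM (log2 fold change 3.44). ANXA1, an annexin that binds membranes in a calcium-dependent way, rose from 13.0, 18.9 and 12.4 TPM to 147, 142 and 115 TPM (log2 fold change 3.12). The groups of all 3 genes lay far apart, and DKK1 was lowest in replicate 3 of each group.

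S100A4, a calcium-binding protein linked to cell motility, rose from 3.33, 2.45 and 2.62 TPM to 21.8, 27.4 and 22.6 TPM (log2 fold change 2.72). MIA, a secreted protein that melanoma cells release, rose from 11.9, 12.7 and 10.0 TPM to 73.3, 70.8 and 66.2 TPM (log2 fold change 2.51). CASS4, a focal adhesion scaffold, LRRC55, a potassium channel subunit, and UNC13A, a protein of synaptic vesicle release, were under 1 TPM in every siCTRL + IFNγ library. They reached means of 12.8, 9.13 and 4.69 TPM in siMITF + IFNγ libraries, with log2 fold changes of 3.29, 3.24 and 2.41 on a scale that the pseudocount of 1 shrinks. DACT1, a Wnt pathway modulator, and ZNF385C, a zinc finger protein, rose with 2.46 and 2.64, and KRTAP22-2, a keratin-associated protein, with 2.78. GZMA, the granzyme of cytotoxic lymphocytes, rose from 0.297, 0.528 and 0.421 TPM to 11.7, 10.2 and 9.0 TPM (log2 fold change 2.99). Without IFNγ GZMA had 0.177, 0.189 and 0.147 TPM in siCTRL and 4.66, 4.98 and 4.82 TPM in siMITF libraries (log2 fold change 2.31). The T cell marker CD8A had means of 0.0145 TPM in siCTRL + IFNγ and 0.0229 TPM in siMITF + IFNγ, and CD3E was at 0. The summed level of other-cell markers, of which only LYZ and LUM reached 2 TPM, was higher in siMITF + IFNγ libraries. Its part in the GZMA value was not tested.

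**Figure D2:**
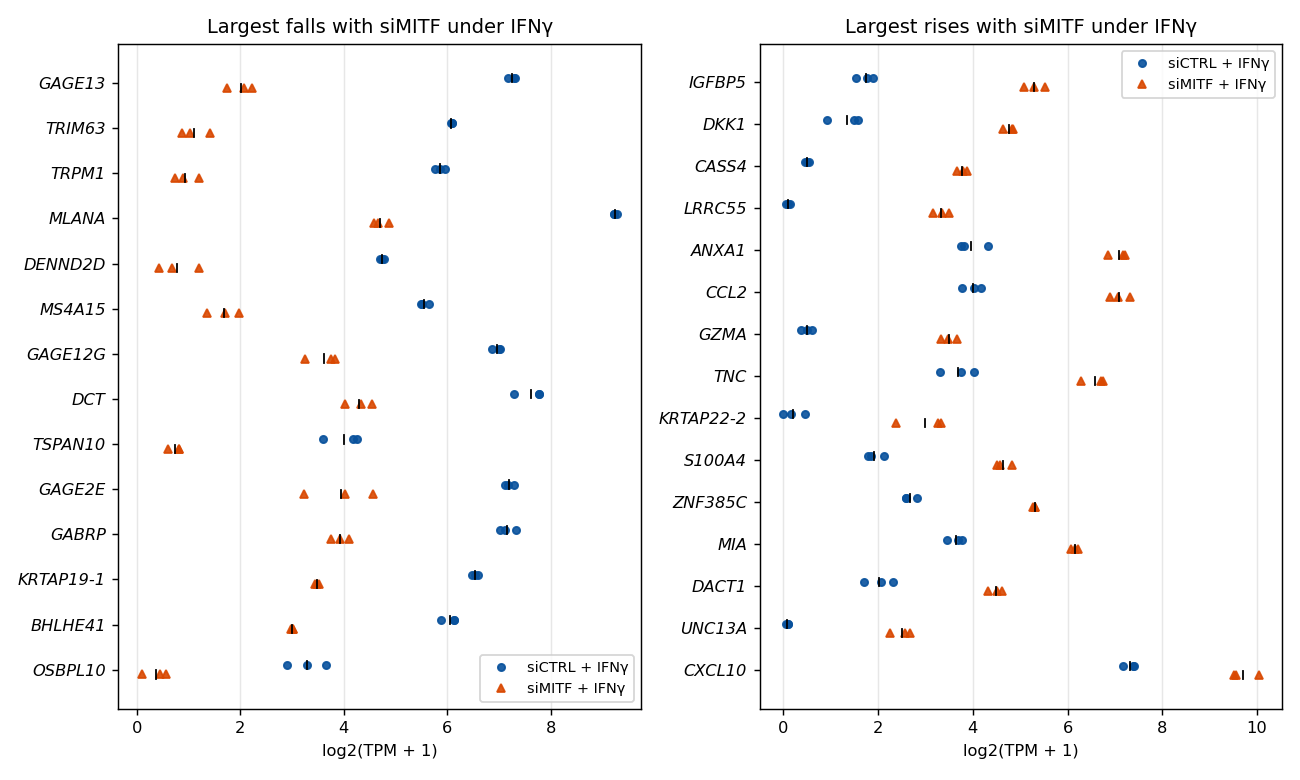
log2(TPM + 1) in each siCTRL + IFNγ library (circles) and siMITF + IFNγ library (triangles) for the protein-coding genes among the 15 largest falls (left) and the 15 largest rises (right), with black lines at the group means. In each gene plotted the 3 libraries of one group lie on one side of the other 3, which the rule that chose these genes required, and the changes run up to -5.24 for GAGE13 and 3.56 for IGFBP5.

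A set of 4 groups of matrix and cell state genes contained calls in the upward direction only, beside 3.17% higher and 2.61% lower of all tested IDs. Of 28 extracellular matrix and remodelling genes, 20 were tested and 7 rose (median log2 fold change 0.76). Of 21 integrins and adhesion molecules, 14 were tested and 6 rose (median 0.78). Of 25 markers of dedifferentiated melanoma, 15 were tested and 5 rose (median 0.67), and of 22 targets of YAP-TEAD and TGF-beta, 19 were tested and 4 rose (median 0.42). Some genes stand in more than 1 of these lists. Their medians without IFNγ were 0.80, 0.58, 0.80 and 0.46 in the same order. At any size under IFNγ, 15, 9, 11 and 10 members in that order were higher with an adjusted p under 0.05 in limma. Lower at that limit were 2, 1, 0 and 0 members.

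Tenascin C, a matrix protein of remodelling tissue, was the largest of the matrix changes after IGFBP5. TNC had 8.91, 15.4 and 12.4 TPM in siCTRL + IFNγ and 76.7, 103 and 106 TPM in siMITF + IFNγ libraries (log2 fold change 2.88, standard error 0.18, limma adjusted p = 1.1e-07). The matrix protease MMP2 rose from 9.43, 13.3 and 11.4 TPM to 32.7, 33.7 and 34.9 TPM (log2 fold change 1.5), and the laminin chain LAMA4 from 16.3, 20.2 and 18.6 TPM to 52.6, 50.2 and 54.1 TPM (log2 fold change 1.47). COL9A3, a collagen chain, PLAT, the tissue plasminogen activator, and LOXL3, a lysyl oxidase, rose with 1.28, 1.11 and 1.25. Fibronectin had an adjusted p under 0.05 but missed the fold limit, with 147, 154 and 131 TPM against 318, 240.1 and 252 TPM for FN1 (log2 fold change 0.89), and SPARC had 0.20 and did not pass the test.

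CDH19, a cadherin of Schwann cell precursors and melanocytes, was the adhesion gene that rose most, from 10.5, 16.0 and 15.4 TPM to 53.9, 63.5 and 55.6 TPM (log2 fold change 1.99, limma adjusted p = 3.7e-07). N-cadherin, known from mesenchymal cells, rose but stayed low, with 0.321, 0.601 and 0.366 TPM against 2.76, 2.64 and 2.96 TPM for CDH2 (log2 fold change 1.41). The integrin subunits ITGA1, ITGA6, ITGB5 and ITGA3 rose with log2 fold changes of 1.62, 1.37, 1.24 and 1.09. ITGA6, the laminin-binding subunit, was the most abundant of them, with 41.7, 61.4 and 55.3 TPM against 125, 141 and 145 TPM. ITGAV and ITGB1 had 0.87 and 0.31 and were not called. ITGA3 fell under the fold limit, to 0.90 at the lowest, without siCTRL + IFNγ replicate 1 or siMITF + IFNγ replicate 2.

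ERBB3, a neuregulin receptor of neural crest cells, rose from 41.1, 52.4 and 46.2 TPM to 93.3, 99.5 and 107 TPM (log2 fold change 1.09). CCN1, a secreted matricellular protein and YAP target, rose from 16.4, 23.0 and 18.5 TPM to 78.9, 104 and 104 TPM (log2 fold change 2.25), and WWTR1, the YAP relative TAZ, from 74.0, 117 and 99.7 TPM to 195, 271 and 262 TPM (log2 fold change 1.33). YAP1 and TEAD1 had 0.28 and 0.25 and did not pass the test. The neural progenitor filament NES had an adjusted p under 0.05 and a log2 fold change of 0.67, and vimentin (VIM), already high at a mean of 1638 TPM, had 0.13. Several markers that define dedifferentiated lines, AXL, NGFR, EGFR and WNT5A among them, had means under 2 TPM in both groups and were not tested. Below that minimum NGFR was higher in each siMITF + IFNγ library (0.0736, 0.149 and 0.115 TPM against 0.883, 1.05 and 1.21 TPM). AXL, EGFR and WNT5A had means of 0.0835, 0.00681 and 0.741 TPM against 0.205, 0.0402 and 0.890 TPM.

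Genes of the IFNγ response were higher in part in siMITF + IFNγ libraries, although both groups had received IFNγ. Of 16 MHC class II genes, 9 were tested, 5 rose and 0 fell (median log2 fold change 1.00, against 0.14 without IFNγ). Taken gene by gene, the class II difference with minus without IFNγ was positive for 6 of the 9 and had a median of 0.05, and 4 passed the test of the difference. Of 35 IFNγ target genes, 31 were tested, 9 rose and 0 fell (median 0.50, against 0.00 without IFNγ, median difference 0.59). At any size, 19 of the 31 were higher and 2 lower with an adjusted p under 0.05 in limma. Of 24 MHC class I presentation genes, 22 were tested and 1 rose, while 11 had an adjusted p under 0.05 upwards and 1 downwards (median 0.44, against 0.04 without IFNγ, median difference 0.33). Over all tested IDs, 3.17% were called higher and 2.61% lower. The lists were not tested as sets.

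The CXCR3 ligands, which attract T cells, rose, and CXCL10 had the largest change on these 3 lists. CXCL10 had 165, 167 and 144 TPM in siCTRL + IFNγ and 1047, 748 and 729 TPM in siMITF + IFNγ libraries, a log2 fold change of 2.38 with a standard error of 0.12 (limma adjusted p = 2.8e-08). CXCL9 had 70.7, 97.4 and 75.3 TPM against 332, 288 and 268 TPM (log2 fold change 1.86, adjusted p = 2.0e-07), and CXCL11 had 13.6, 17.3 and 11.6 TPM against 38.5, 35.1 and 28.4 TPM (log2 fold change 1.21). No library of one group reached the other, and the mean TPM of CXCL10 was 5.31-fold higher with siMITF. The guanylate-binding protein GBP4, which acts in defence inside the cell, rose from 5.25, 5.74 and 4.85 TPM to 20.0, 18.4 and 18.5 TPM (log2 fold change 1.67), and its relatives GBP3 and GBP2 had 1.15 and 1.10. GBP1, far more abundant at means of 471 and 863 TPM, had 0.88 and missed the fold limit.

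CASP1, the inflammatory caspase, APOL3, an apolipoprotein L, and UBD, a ubiquitin-like modifier, also rose, with log2 fold changes of 1.07, 1.01 and 1.13. UBD was near the minimum level, at 1.32, 2.72 and 2.44 TPM in siMITF + IFNγ libraries. Single libraries decided some of these calls: without siCTRL + IFNγ replicate 2 UBD had 0.89, without siMITF + IFNγ replicate 1 GBP2 had 0.96, and without siCTRL + IFNγ replicate 1 or siMITF + IFNγ replicate 3 APOL3 fell under the limit of 1, to 0.96 at the lowest. Other IFNγ targets were high in both groups and were not called: WARS1, the tryptophanyl-tRNA synthetase, had 1169, 1574 and 1487 TPM against 1517, 1849 and 1886 TPM (log2 fold change 0.32), and the adhesion molecule ICAM1 had 363, 515 and 444 TPM against 431, 522 and 522 TPM (log2 fold change 0.17). The groups overlapped in both genes.

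Within MHC class II, the invariant chain and HLA-DMB, of the peptide exchange factor, rose together with the coactivator. HLA-DMA, of the same factor, stayed under 2 TPM in both groups and was not tested. CIITA, the class II coactivator, had 4.74, 7.49 and 5.09 TPM in siCTRL + IFNγ and 10.8, 13.7 and 12.9 TPM in siMITF + IFNγ libraries (log2 fold change 1.00, standard error 0.16, limma adjusted p = 3.0e-04), just past the fold limit. The CIITA call was lost on that limit, at 0.90 at the lowest, without siCTRL + IFNγ replicate 1 or 3 or siMITF + IFNγ replicate 2 or 3, and in 3 other settings. CD74, the invariant chain that guides class II molecules, had 39.4, 50.7 and 43.4 TPM against 168, 152 and 168 TPM (log2 fold change 1.85, adjusted p = 3.0e-07). HLA-DMB, which helps load peptides, had 0.536, 1.01 and 0.631 TPM against 3.76, 4.69 and 3.81 TPM (log2 fold change 1.57). IFI30, a lysosomal thiol reductase of antigen processing, rose from 139, 169.6 and 139 TPM to 319, 351 and 321 TPM (log2 fold change 1.15), with 1.22 without IFNγ.

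The IDs read for the class II heterodimers themselves, chosen by gene symbol, stayed low. HLA-DPA1 rose from 0.458, 0.664 and 0.574 TPM to 2.40, 2.55 and 2.50 TPM (log2 fold change 1.15), while HLA-DRA, HLA-DRB1, HLA-DPB1, HLA-DQA1 and HLA-DQB1 were under 2 TPM in both groups and were not tested. HLA reads can be split between near-identical copies on alternative haplotypes, so HLA levels are uncertain. The constitutive class II factors RFX5, RFXANK and RFXAP had log2 fold changes of 0.35, 0.35 and -0.25, all under the fold limit.

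In the class I pathway HLA-B was the gene that rose, from 73.2, 97.7 and 87.3 TPM to 204, 232 and 246 TPM (log2 fold change 1.40, limma adjusted p = 3.6e-06), with the same limit on HLA reads. B2M, the light chain shared by class I molecules, had 497, 644 and 529 TPM against 1058, 959 and 872 TPM (log2 fold change 0.79, adjusted p = 9.2e-05), separate groups that missed the fold limit. The chaperone PDIA3 was the 1 class I gene with an adjusted p under 0.05 in the other direction, at 461, 622 and 527 TPM against 287, 347 and 318 TPM (log2 fold change -0.75), and CALR had -0.23 and did not pass.

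Of 24 genes for the IFNγ receptor, JAK-STAT factors and their brakes, 21 were tested, 2 rose and 0 fell, beside 5.78% of all tested IDs called in either direction (median log2 fold change -0.0013). Both that rose were feedback inhibitors: SOCS1 rose from 3.80, 4.63 and 2.96 TPM to 9.26, 11.4 and 11 TPM (log2 fold change 1.28, limma adjusted p = 1.9e-05) and SOCS2 from 5.36, 6.31 and 5.40 TPM to 22.3, 22.1 and 26.7 TPM (log2 fold change 1.88). IRF1, the factor that relays the IFNγ signal, was named after its values were seen and had 76.8, 102 and 85.1 TPM against 134, 170.2 and 162 TPM (log2 fold change 0.82, adjusted p = 2.2e-04), with separate groups but under the fold limit. STAT2 and STAT3 had log2 fold changes of 0.30 and 0.26 and did not pass the test.

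Type I interferon-stimulated genes went both ways. Of 30 listed, 28 were tested, 1 rose and 2 fell (median log2 fold change -0.12), beside 3.17% higher and 2.61% lower of all tested IDs. At any size, 7 were higher and 8 lower with an adjusted p under 0.05 in limma, beside 18.3% and 14.8% of all tested IDs. IFITM1, an antiviral membrane protein, rose from 634, 705 and 621 TPM to 1386, 1295 and 1312 TPM (log2 fold change 1.03), a call lost at 0.99 without siCTRL + IFNγ replicate 3 and also without siMITF + IFNγ replicate 1. ISG20, an exonuclease, fell from 157, 165 and 147 TPM to 47.8, 51.5 and 51.7 TPM (log2 fold change -1.62, limma adjusted p = 3.2e-08), and IFIT1, which binds viral RNA, from 21.7, 22.1 and 20.3 TPM to 9.09, 6.45 and 6.92 TPM (log2 fold change -1.41). The abundant members IFI6, IFITM3, BST2 and LGALS3BP had -0.53, 0.27, 0.52 and -0.06, none of them past the fold limit.

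The effects of siMITF with and without IFNγ, which share no library, were alike for most genes. Without IFNγ, 748 of the same 12555 IDs (5.96%) changed. Of these, 534 changed in both settings and 0 of them in opposite directions, which is 73.6% of the IDs changed under IFNγ and 71.4% of those changed without it. A further 192 IDs changed under IFNγ and were not called without it, but 167 of them had the same sign without IFNγ and 121 an adjusted p under 0.05 there, and 44 passed the test of the difference between the effects. Across the 12555 IDs, which are not independent replicates, the log2 fold changes in both settings correlated with Pearson's r = 0.879.

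The difference between the effects passed an adjusted p under 0.05 with a size of at least 1 on the log2 scale for 60 IDs (0.478%), of which 50 were positive (0.398%) and 10 negative, and 41 had a gene symbol. At any size, 119 IDs (0.948%) passed the adjusted p. Of the 50 positive IDs, 39 had risen with siMITF under IFNγ, and in 32 IFNγ itself raised siCTRL cells by at least 1 on the log2 scale. In 40 of the 50 both groups without IFNγ were under 2 TPM, where the pseudocount of 1 holds the effect without IFNγ near 0. At such levels a ratio of TPM is uncertain.

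**Figure D3:**
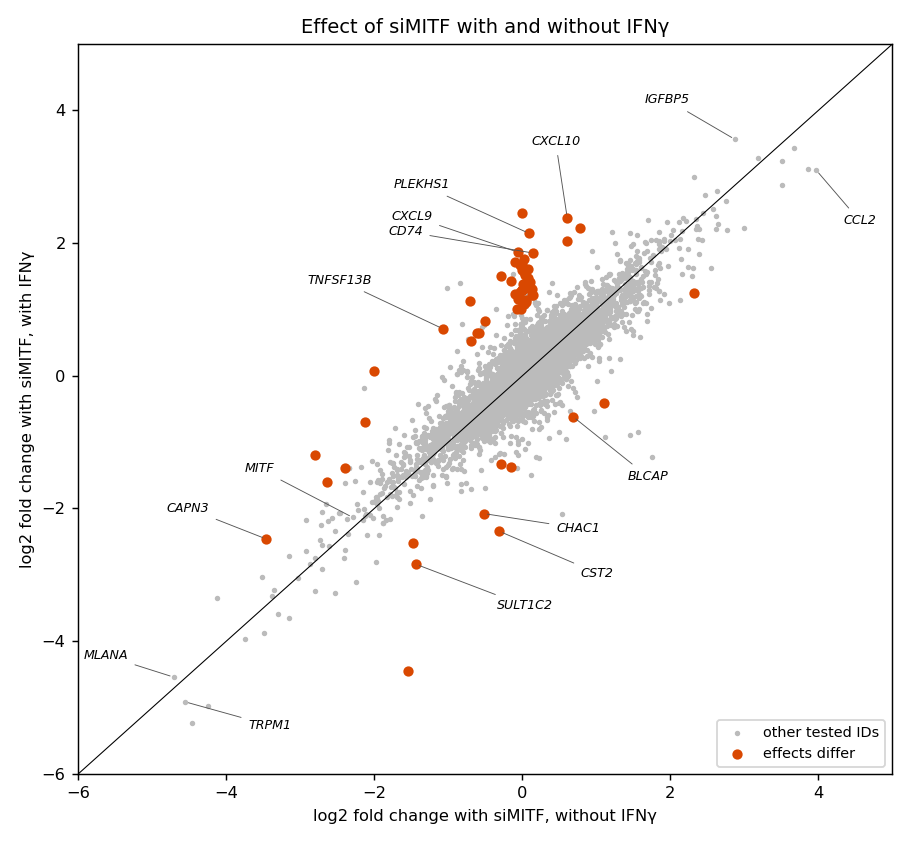
Log2 fold change with siMITF in the presence of IFNγ (vertical) against its absence (horizontal) for 12555 tested IDs in grey, with the 60 IDs whose effects differed in orange and the line of equal effects in black. Most points follow the line (Pearson's r = 0.879), and most of the 50 positive differences stand near 0 on the horizontal axis.

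CXCL9 had 0.235, 0.219 and 0.343 TPM in siCTRL and 0.210, 0.258 and 0.164 TPM in siMITF libraries without IFNγ, so that its difference of 1.93 (standard error 0.17, limma adjusted p = 1.8e-04) rested on the IFNγ libraries. CXCL10 had 0.0414, 0.0294 and 0 TPM against 0.580, 0.481 and 0.612 TPM without IFNγ, and its difference was 1.78 (adjusted p = 3.1e-04). With a pseudocount of 0.1 in place of 1 that difference was -0.03, because on that scale CXCL10 was also higher with siMITF in the absence of IFNγ. The direction of the CXCL10 difference therefore depends on how values near 0 are treated, while CXCL10 stayed called as higher under IFNγ in every alternative run. GBP4 and CD74 had differences of 1.71 and 1.71 (adjusted p = 7.2e-05 and 4.2e-04), HLA-DMB and HLA-DPA1 1.54 and 1.21.

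PLEKHS1, a pleckstrin homology protein, had under 1 TPM in 9 libraries and 4.68, 4.87 and 4.84 TPM in siMITF + IFNγ libraries alone, a difference of 2.06 (limma adjusted p = 6.5e-05). IL32, a cytokine, had 4.74, 5.09 and 4.07 TPM against 26.5, 24.5 and 24.7 TPM with IFNγ (log2 fold change 2.22) and a log2 fold change of 0.77 without it, a difference of 1.45.

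TNFSF13B, the B cell factor BAFF, was lower with siMITF without IFNγ, at 9.39, 8.31 and 7.57 TPM against 3.92, 3.14 and 3.33 TPM, and higher with IFNγ, at 43.0, 52.0 and 51.9 TPM against 86.1, 75.4 and 79.9 TPM (log2 fold change 0.71, difference 1.79). CAPN3 fell in both settings, with log2 fold changes of -2.46 with IFNγ and -3.47 without it.

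In the negative direction, several genes were highest in siCTRL + IFNγ libraries. CHAC1, a glutathione-degrading enzyme of the stress response, had 6.78, 8.20 and 6.25 TPM in siCTRL and 30.5, 32.8 and 30.8 TPM in siCTRL + IFNγ libraries, but 4.58, 5.52 and 3.83 TPM in siMITF and 6.58, 6.76 and 6.65 TPM in siMITF + IFNγ libraries (difference -1.56, limma adjusted p = 5.2e-04). SULT1C2, a sulfotransferase, had 2.60, 3.78 and 2.67 TPM in siCTRL and 20.2, 18.7 and 18.8 TPM in siCTRL + IFNγ against 1.77, 1.91 and 1.79 TPM in siMITF + IFNγ libraries (difference -1.40). CST2, a salivary cystatin, had 7.44, 5.97 and 5.28 TPM in siCTRL + IFNγ libraries and 0.590, 0.103 and 0.602 TPM in siMITF + IFNγ libraries (difference -2.04). BLCAP and C2orf80 had differences of -1.30 and -1.22, and LOXL3, which rose in both settings, had -1.07, which was lost in 9 of 12 omissions of a single library. Of these 6 genes BLCAP was not called under IFNγ (-0.62).

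**Figure D4:**
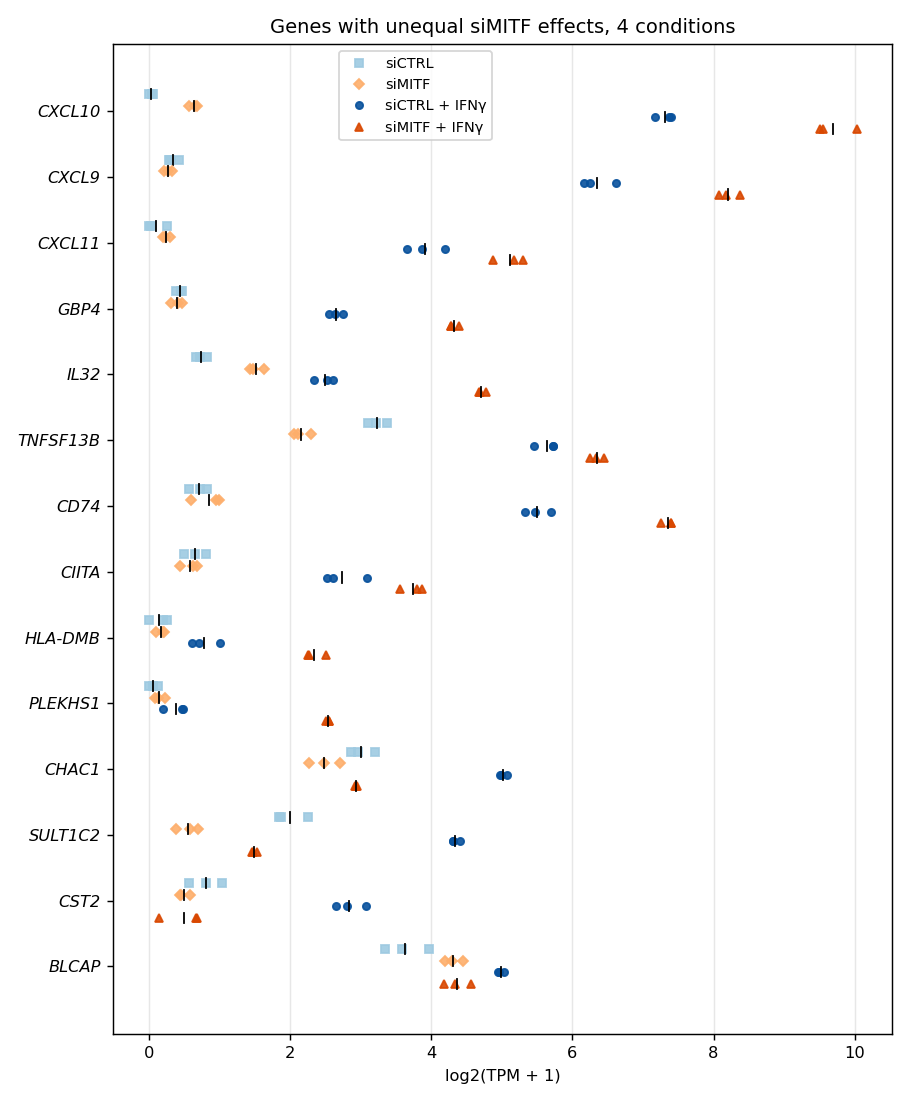
log2(TPM + 1) of 14 genes whose siMITF effect differed between settings, in every library of the 4 conditions, with black lines at condition means. In the 9 genes from CXCL10 to HLA-DMB, and in PLEKHS1, the siMITF + IFNγ libraries lie highest, and CHAC1, SULT1C2, CST2 and BLCAP are highest in siCTRL + IFNγ.

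A pair of TTTC with 2 free bases between them, a spacing found in interferon-stimulated response elements, stood on either strand in 30.4% of the 23 promoters of genes with a positive difference, in 5.41% of the promoters of genes that rose and in 2.8% of all tested promoters. TTCNNNGAA, the gamma-activated site to which STAT factors bind, stood in 17.4%, 7.34% and 6.27% of the same sets. IFNγ targets often hold these letters, and the set was chosen by a response to IFNγ, so the shares describe it and are read no further. The promoters of 2 of these genes are shown from 5′ to 3′ with both motifs in capitals, because these chemokines had the largest log2 fold changes on the IFNγ target list. The TTTC pair begins at position -221 in CXCL10 and -171 in CXCL9, in both on the strand opposite to the one printed.
CXCL10, chr4:76023448-76023747, minus strand: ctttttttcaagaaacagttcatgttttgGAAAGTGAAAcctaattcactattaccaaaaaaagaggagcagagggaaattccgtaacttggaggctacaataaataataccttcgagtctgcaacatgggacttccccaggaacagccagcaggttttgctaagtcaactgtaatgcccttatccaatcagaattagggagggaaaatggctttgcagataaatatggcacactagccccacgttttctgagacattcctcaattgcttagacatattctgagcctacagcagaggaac
CXCL9, chr4:76007460-76007759, minus strand: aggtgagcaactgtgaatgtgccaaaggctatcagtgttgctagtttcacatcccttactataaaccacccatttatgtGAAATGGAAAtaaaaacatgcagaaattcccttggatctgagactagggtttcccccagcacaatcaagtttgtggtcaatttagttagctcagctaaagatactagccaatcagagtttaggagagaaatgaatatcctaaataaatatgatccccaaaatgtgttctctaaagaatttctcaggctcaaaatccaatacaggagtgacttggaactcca

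Of 25 cytokines and chemokines, 12 were tested, 2 rose and 1 fell, beside 5.78% of all tested IDs called in either direction. Besides IL32, CCL2, which attracts monocytes, rose from 15.3, 17.1 and 12.7 TPM to 158, 134 and 117 TPM (log2 fold change 3.10, limma adjusted p = 1.1e-08). Its log2 fold change without IFNγ was 3.97, and the difference of -0.87 (standard error 0.20) did not pass (limma adjusted p = 0.085). GDF15, a stress-induced cytokine, fell from 374, 401 and 362 TPM to 142, 168 and 164 TPM (log2 fold change -1.26). CXCL8, CCL8 and VEGFA had 0.30, 0.48 and 0.26 and were not called. Among 16 checkpoint ligands and co-receptors, 9 were tested, 2 fell and 0 rose, beside the same share. At any size, 4 of the 9 were higher and 4 lower with an adjusted p under 0.05 in limma. The difference of effects passed both limits for 1 of the 9. LGALS3, galectin-3, fell from 428, 411 and 425 TPM to 114, 107 and 108 TPM (log2 fold change -1.93), and TNFRSF14, the receptor HVEM, from 77.7, 87.6 and 79.7 TPM to 25.8, 31.6 and 34.9 TPM (log2 fold change -1.39). NECTIN2, CD47, CD58 and CD276 had 0.72, 0.49, 0.28 and -0.36, under the fold limit.

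Lysosomal genes, a further field of the MITF and TFE factors, leaned downwards. Of 30 listed, 29 were tested, 3 fell and 0 rose, beside 2.61% lower and 3.17% higher of all tested IDs. At any size, 17 had an adjusted p under 0.05 downwards and 2 upwards, beside 14.8% and 18.3% (median log2 fold change -0.46). The protease CTSL had 421, 469 and 427 TPM against 109, 119 and 106 TPM (log2 fold change -1.97, limma adjusted p = 2.5e-09). The acid ceramidase ASAH1 had 419, 480.5 and 433 TPM against 145, 154 and 137 TPM (log2 fold change -1.61), and ATP6V0E1, a subunit of the proton pump, 198, 202 and 189.8 TPM against 69.0, 63.1 and 61.2 TPM (log2 fold change -1.59). The groups were far apart in all 3. The abundant cathepsin CTSB had 0.15 and did not pass.

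In the stress and signalling lists the calls went both ways, beside 5.78% of all tested IDs called. Of 17 tested genes of the integrated stress response, CHAC1 and PSAT1, an enzyme of serine synthesis, fell (-2.08 and -1.23) and the cystine transporter SLC7A11 rose (1.07). The SLC7A11 call was lost, at 0.87 at the lowest, without siCTRL + IFNγ replicate 1 or siMITF + IFNγ replicate 2. Of 16 tested NF-kB and AP-1 genes, JUN rose from 8.06, 10.2 and 7.72 TPM to 20.6, 23.8 and 23.0 TPM (log2 fold change 1.29) and EGR1, an immediate early gene, fell from 17.7, 25.6 and 27.0 TPM to 5.24, 8.85 and 9.79 TPM (log2 fold change -1.46). Of 16 MAPK feedback genes, SPRY2 rose (1.08, but 0.97 without siCTRL + IFNγ replicate 1), and DUSP6 and CCND1 had 0.06 and 0.10. Of 23 tested genes of cholesterol and fatty acid synthesis, the desaturase SCD fell from 224, 266 and 293 TPM to 108, 117 and 133 TPM (log2 fold change -1.12), and FASN, FDPS and ACLY had -0.09, -0.03 and 0.19.

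No gene was called in the lists for S phase (26 tested), mitosis (26), CDK inhibitors and p53 targets (13), hypoxia and glycolysis (21), nuclear genes of mitochondrial respiration (22), mitochondrially encoded genes (13) and housekeeping (12). In limma, 6 of the 26 S phase genes and 3 of the 26 mitosis genes had an adjusted p under 0.05 downwards and 0 upwards. Over all tested IDs the shares were 14.8% downwards and 18.3% upwards. The median log2 fold changes of both lists were -0.22 and -0.10. CDK1, CCNB1 and PCNA had 0.00, -0.13 and -0.10. Mitochondrially encoded genes had a median of 0.21, none with an adjusted p under 0.05, and siCTRL + IFNγ replicate 2 was their lowest library. Of the housekeeping genes, ACTB and PPIA had -0.12 and 0.09, GAPDH -0.31, and the ribosomal protein RPLP0 0.73, the last with 1439, 1599 and 1684 TPM against 2365, 2678 and 2771 TPM.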

How the data were processed

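RNA of 624Mel cells was sequenced from TruSeq RNA v2 libraries in 4 conditions of 3 libraries. The authors cleaned the reads (Trimmomatic 0.39), estimated expression by kallisto against Ensembl's human GRCh38 transcripts and deposited TPM by gene ID. Which Ensembl release was used, and how transcripts were summed to genes, is not given in the sources used here. The authors tested counts in DESeq2 1.26.0. TPM are not counts, so read depth is unknown and no count test or counting interval was made. The study states that experiments had independent biological replicates. The labels do not say whether these libraries came from separate cultures, and p-values measure the spread between them.

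For the tests, log2(TPM + 1) was taken, which understates changes of low genes. A limma 3.58.1 model (R 4.3.3) held all 12 libraries, with 1 coefficient per condition and an intensity trend. It covered the 12555 of 40173 IDs that averaged 2 TPM or more in either IFNγ group. Tests were two-sided, with Benjamini-Hochberg adjustment over these IDs. A change required an adjusted p under 0.05 and a log2 fold change of 1 or more in size, and the same limits were set on the difference of effects. The model was tested on simulated data. GENCODE version 44 (GRCh38) gave symbols and positions and lacked 795 tested IDs, and RefSeq (GRCh38.p14) gave promoters. Of the tested IDs, 512 had values identical to another ID. Python 3.11.15 with matplotlib 3.10.9, pandas 2.3.3 and numpy 2.4.6 was also used.

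The members and the 28 gene lists (593 symbols) were chosen with earlier results of these data known. Named genes were MITF, 15 called genes with a symbol and separate groups at each end, called list members with up to 4 more per list by mean TPM, and 5 genes at each end of the difference. IRF1, ATP7A, MYO5A and members given only as under 2 TPM were named after their values were seen. The labels do not say whether replicate numbers pair the samples, and the main fit did not pair them. After group means were subtracted, same-numbered IFNγ libraries correlated across IDs at 0.634, 0.381 and 0.347. Different numbers correlated at a median of -0.41. Deviations from a mean of 3 libraries sum to 0, so the latter value is not separate support for pairing. Alternatives were the replicate number as a block, pseudocounts of 0.1 and 0.5, no filter, a minimum of 5 TPM, quantile normalization, median centring, rescaling without mitochondrially encoded genes, no trend, only the 6 libraries, sums by symbol, folds of mean TPM, an adjusted p under 0.01 and omission of each library. Counts over lists include some genes that are not reported here.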

Additional observations from a re-analysis of the deposited data

Results flagged for a closer look

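The effect of siMITF differed between cells with and without IFNγ for 60 IDs, tested as the difference of both log2 effects in the limma fit (adjusted p under 0.05 and at least 1). Among the named genes the difference was positive for PLEKHS1 (2.06), CXCL9 (1.93), TNFSF13B (1.79), CXCL10 (1.78), CD74 (1.71) and GBP4 (1.71). Smaller positive differences were found for HLA-DMB (1.54), IL32 (1.45), HLA-DPA1 (1.21), CIITA (1.08), CXCL11 (1.07), CASP1 (1.05), APOL3 (1.03) and CAPN3 (1.01). It was negative for LOXL3 (-1.07), C2orf80 (-1.22), BLCAP (-1.30), SULT1C2 (-1.40), CHAC1 (-1.56) and CST2 (-2.04). Most of the positive genes were near 0 TPM without IFNγ in both siRNA groups, and the part of the pseudocount in their differences was tested only by the alternatives given further on.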

How the results depend on the processing

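The count of 726 changed IDs ran from 519 with a mean of at least 5 TPM to 930 with a pseudocount of 0.1 over the alternatives that keep all libraries, and from 711 to 758 with each library left out. With a mean of at least 5 TPM, 263 rose, and 37 IDs differed between settings, 32 of them positive, with fewer IDs tested. Leaving out each library gave 347 to 461 IDs that rose (fewest without siCTRL + IFNγ replicate 1, most without siCTRL + IFNγ replicate 2), 297 to 404 that fell, 46 to 67 that differed, 740 to 763 changed without IFNγ, and a log2 fold change of MITF from -2.35 to -1.97. With the replicate block 739 IDs changed, the 726 among them, and 68 differed, the 60 among them, and no call of a named gene was lost.

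For single genes, 75 of 3315 values lost their call and 1 reversed. The difference of CXCL10 was -0.0301 with a pseudocount of 0.1. The differences of CIITA and CXCL11 were each lost in 10 of the 12 single-library omissions and that of LOXL3 in 9, with values from 0.97 to 1.25, from 0.94 to 1.21 and from -1.20 to -0.90. With pseudocounts of 0.1 and 0.5 all 3 missed the adjusted p, CIITA at larger values (1.29 and 1.17), LOXL3 too (-1.20 and -1.17), and CXCL11 at smaller ones (0.39 and 0.97). Among the omissions they held without siCTRL + IFNγ replicate 2 or siMITF + IFNγ replicate 1 (CIITA), siCTRL + IFNγ replicate 2 or siMITF + IFNγ replicate 3 (CXCL11), and siCTRL + IFNγ replicate 1 or siMITF + IFNγ replicate 2 or 3 (LOXL3). The difference of CAPN3 was lost, at 0.96 at the lowest, when replicate 1 or 3 of siMITF, replicate 1 of siCTRL or of siCTRL + IFNγ, or replicate 3 of siMITF + IFNγ was left out, that of APOL3 without siCTRL + IFNγ replicate 1 and that of CASP1 without siCTRL + IFNγ replicate 3. With a pseudocount of 0.1 the differences of HLA-DMB (2.14), C2orf80 (-1.40), APOL3 (1.18) and CASP1 (1.19) missed the adjusted p at larger values than before, and that of SULT1C2 was -0.88. Under quantile normalization CXCL11 missed the adjusted p (1.02), CASP1 the size limit (0.999) and LOXL3 both (-0.69). Of 698 list medians, 70 moved by more than their spread. The cause was not tested. Read depth is unknown, so how far it limits low genes cannot be stated.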
